A study of Mus musculus with 20 samples.

Results

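C/EBPβ binding was described at 46 mouse genes that encode secreted or cell-surface proteases of the extracellular matrix and their inhibitors. They are 19 ADAMTS, 23 MMP and 4 TIMP genes out of 21887 protein-coding genes. Members were all protein-coding genes named Adamts, Mmp or Timp with a number and, where present, the letter a or b; the ADAMTS-like genes were left out. Peaks whose midpoint lay inside a member's span or within 50 kb of it were joined into sites wherever they shared 1 bp or more. This gave 109 sites of the 23854 found genome-wide. At 37 members (80.4%) there was at least 1 site in any list, against 61% of all protein-coding genes. The 9 members without one were Adamts3, Adamts13, Adamts19, Adamts20, Mmp1a, Mmp1b, Mmp3, Mmp7 and Mmp12. A neighbouring member was also within reach for 9 sites, which were counted once in totals and under each gene in the accounts by gene.

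The cells were 3T3-L1, a mouse preadipocyte line used as a model of fat cell formation, with a doxycycline-inducible, HA-tagged LAP form of the transcription factor C/EBPβ. One line carried the wild-type protein (WT) and the other a mutant of its poly(ADP-ribosyl)ation sites (Mut). Cells held under contact inhibition received vehicle (−Dox) or 1 µg/ml doxycycline for 8 h (+Dox), and the PARP inhibitor BYK204165 (BYK) was given 1 h before doxycycline in the WT line only. The 20 libraries, ChIP and input, formed 10 groups of 2, and the files used here are 5 peak lists, 1 per condition and without replicate numbers. Without replicates, differences between lists were described and not tested. The antibody target was C/EBPβ, so endogenous and induced protein cannot be told apart, and neither the level of induced protein nor preadipocyte markers can be read from peak positions.

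MMPs are zinc proteases that cut collagens, gelatins, proteoglycans and other matrix proteins, and several are held at the cell surface. ADAMTS proteases process procollagens and fibrillin microfibrils or cut large proteoglycans such as aggrecan and versican. TIMPs bind the active sites of these enzymes and limit their action. Preadipocytes remodel a fibroblast-type matrix as they become fat cells, and Mmp14 is known for its part in that remodelling of collagen. C/EBPβ is a bZIP factor of early adipogenesis that binds variants of the palindrome TTGCGCAA.

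Members lay in regions with more sites than the average gene, in every list. The lists are given throughout in the order WT −Dox, Mut −Dox, WT +Dox, Mut +Dox and WT +Dox +BYK, and they held 10959, 6898, 12384, 17816 and 18371 peaks. Sites near members numbered 52, 41, 62, 84 and 90 in that order. The longest lists had the most member sites, and as shares of each list's own sites they were 0.479%, 0.597%, 0.505%, 0.473% and 0.494%. Members with a site numbered 30, 24, 27, 32 and 34 of 46 (65.2%, 52.2%, 58.7%, 69.6% and 73.9%), where 44.1%, 33.3%, 46.3%, 52.2% and 55.1% of all protein-coding genes had one. The mean number of sites per member was 1.22, 0.935, 1.52, 2.07 and 2.13, against 0.816, 0.52, 0.928, 1.22 and 1.33 per protein-coding gene. A longer span takes in more sites, and the median member span was 22786 bp against 17169 bp. Per 100 kb of window, members had 1.73 merged sites and all genes 1.17, as means over genes. The depth behind the lists is unknown, so a longer list and more binding cannot be told apart.

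**Figure D1:**
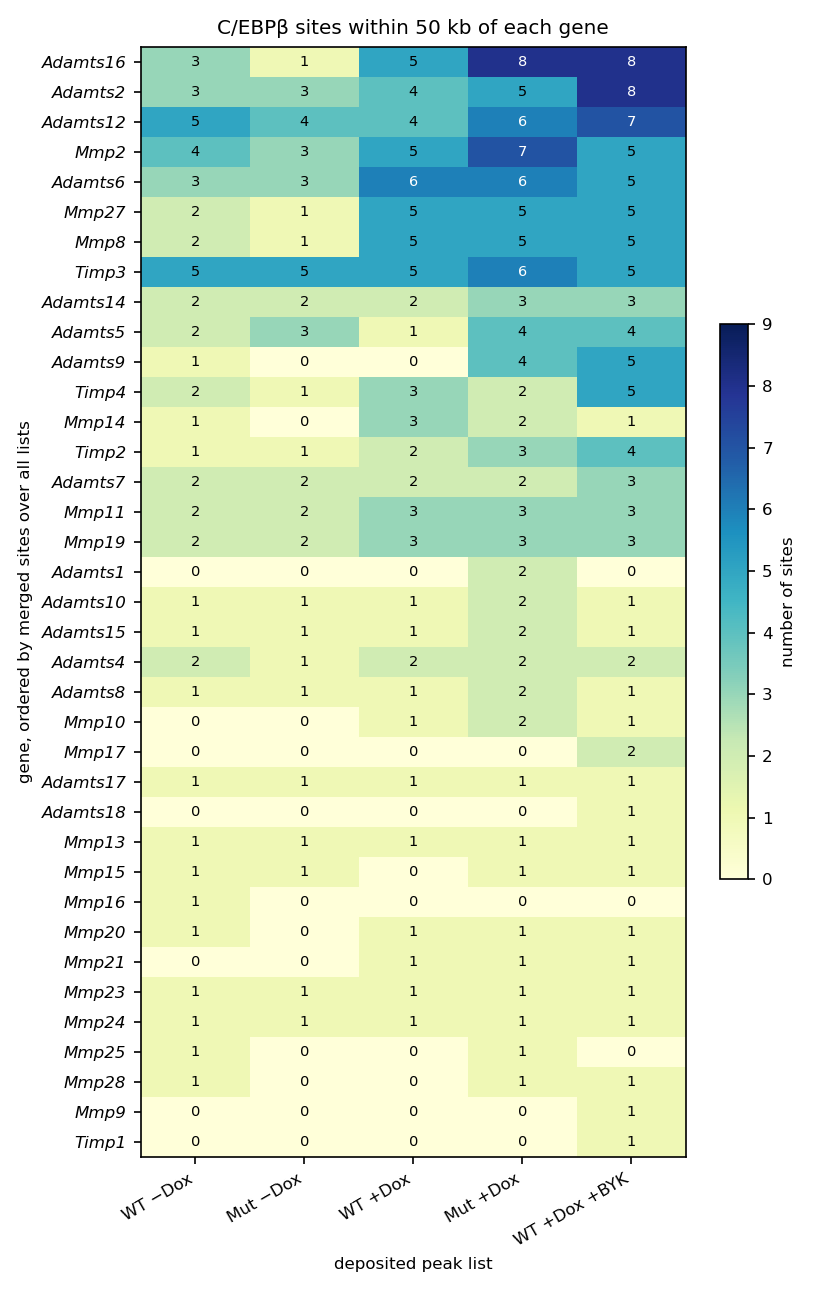
Number of C/EBPβ sites within 50 kb of each of the 37 members with a site (rows, ordered by merged sites over all lists), in each of the 5 deposited peak lists (columns). Adamts16 and Adamts2 reach 8 sites in the inhibitor list, and Timp3 holds at least 5 in every list.

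Among MMP genes, 18 of 23 had a site, where 61% of all protein-coding genes had one, and the family had 34 sites in all. The lists held 18, 12, 23, 27 and 26 of them. A cluster of 10 MMP genes lies on chromosome 9 (7272514 to 7699585, mm10), and its 7 sites sat at the edges of a long stretch without a peak. The site near Mmp13, which encodes a collagenase, lay at 7253004 to 7253871, 19.1 kb from the gene, and had a peak in all 5 lists. Its scores, the authors' own values per peak, were 271.1, 232.24, 211.04, 325.89 and 312.35. From that site to the next was 292 kb, a stretch that spans Mmp13, Mmp12, Mmp1b, Mmp3, Mmp1a and Mmp10, and 0 peaks of any list lay in it. It was picked as the longest distance between neighbouring sites of the cluster, so its lack of peaks follows from that choice. Distances between sites elsewhere in the genome were not measured, so the stretch is not shown to be unusual. Mmp12 encodes macrophage elastase, and Mmp3 and Mmp10 encode stromelysins. Mmp1a and Mmp1b encode collagenases.

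The other 6 sites of the cluster lay around Mmp8, the neutrophil collagenase gene, and its neighbour Mmp27, and all 6 were within 50 kb of both genes. Each gene had 2, 1, 5, 5 and 5 sites. The 3 induced lists held 5 sites and the uninduced lists fewer. The main site (7570263 to 7572100) covered the start of Mmp27 and had a peak in every list, with scores of 361.51 and 353.23 in the WT and Mut lists without Dox, 506.51 in Mut +Dox and 491.6 with BYK. In WT +Dox this site held a pair of peaks, one with a score of 157.47 beside the promoter and one of 97.16 over it. A site over the start of Mmp8 (7557963 to 7558836) had peaks only in the induced lists, with scores of 60.33, 67.16 and 127.71 in WT +Dox, Mut +Dox and WT +Dox +BYK. A site inside Mmp8 (7559826 to 7560783) had the same pattern, with 77.86, 107.19 and 164.63. Mmp10 reached 2 of these sites and Mmp20, the enamelysin gene, 1.

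**Figure D2:**
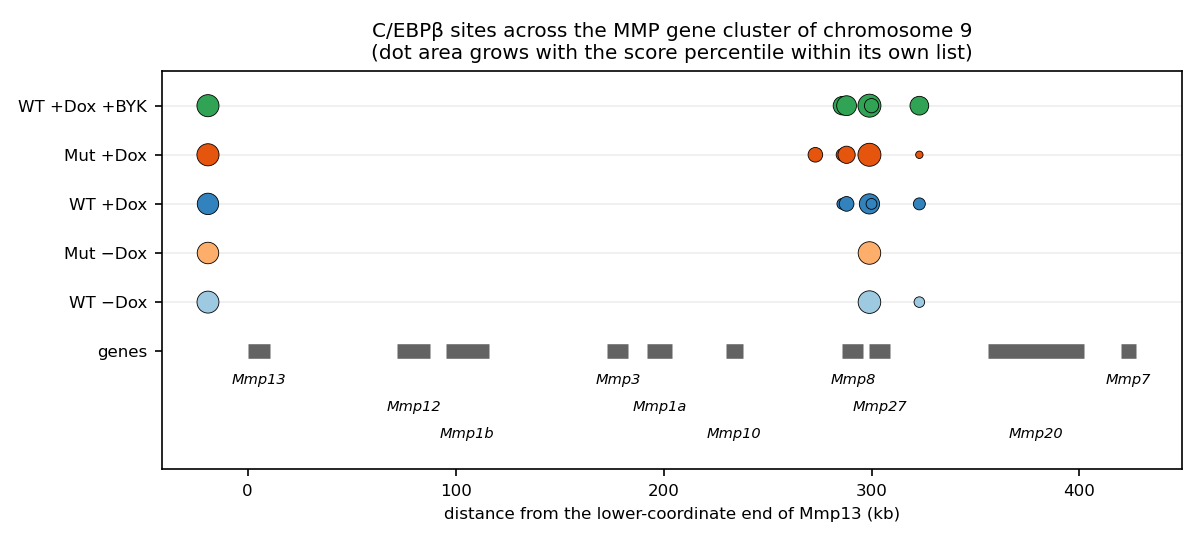
C/EBPβ sites (dots, 1 row per peak list) and gene spans (grey bars) across the MMP cluster, against distance in kb from the lower-coordinate end of Mmp13. Dot area grows with the score percentile within its own list. The dots gather at −19.1 kb and between 273 and 323 kb, with none across the 292 kb between.

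Promoter windows of RefSeq (GRCm38.p6, 250 bases before to 50 after a gene's start) were matched for 32 members, and those of Mmp8 and Mmp27 overlapped a peak (2 of 32, 6.25%). Of 17492 protein-coding genes with a window, 1471 (8.41%) overlapped one. The share leaves out the 14 members without a window. Among these, Adamts5, Adamts6 and Mmp19 each had a site within 1 kb of a gene end, with a peak in all 5 lists. The windows of Mmp8 and Mmp27 are shown because they carry the peaks just described. Mmp10 and Mmp13, chosen after their values were seen, are shown as cluster promoters without a peak. Capitals mark matches to TTGCNNAA, a loose form of the C/EBP palindrome, or to TGANTCA, the AP-1 motif.
Mmp8, chr9:7558179-7558478, plus strand: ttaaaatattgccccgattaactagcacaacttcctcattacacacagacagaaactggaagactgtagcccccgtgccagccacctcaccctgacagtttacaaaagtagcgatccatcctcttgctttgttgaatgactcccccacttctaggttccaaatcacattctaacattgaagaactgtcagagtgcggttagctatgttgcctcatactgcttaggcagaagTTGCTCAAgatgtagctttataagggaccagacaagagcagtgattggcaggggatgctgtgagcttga
Mmp27, chr9:7571146-7571445, plus strand: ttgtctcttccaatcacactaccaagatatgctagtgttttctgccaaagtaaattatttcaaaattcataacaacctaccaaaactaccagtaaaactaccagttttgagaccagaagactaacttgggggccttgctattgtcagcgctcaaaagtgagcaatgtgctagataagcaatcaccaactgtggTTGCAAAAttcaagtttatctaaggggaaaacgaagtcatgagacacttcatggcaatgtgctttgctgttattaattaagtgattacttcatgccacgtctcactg
Mmp10, chr9:7502092-7502391, plus strand: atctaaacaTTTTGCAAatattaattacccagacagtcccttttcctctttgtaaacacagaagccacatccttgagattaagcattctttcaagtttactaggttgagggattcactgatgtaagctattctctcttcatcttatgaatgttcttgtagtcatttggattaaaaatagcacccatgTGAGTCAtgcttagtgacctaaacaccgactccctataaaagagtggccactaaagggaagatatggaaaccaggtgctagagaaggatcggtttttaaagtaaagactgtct
Mmp13, chr9:7272264-7272563, plus strand: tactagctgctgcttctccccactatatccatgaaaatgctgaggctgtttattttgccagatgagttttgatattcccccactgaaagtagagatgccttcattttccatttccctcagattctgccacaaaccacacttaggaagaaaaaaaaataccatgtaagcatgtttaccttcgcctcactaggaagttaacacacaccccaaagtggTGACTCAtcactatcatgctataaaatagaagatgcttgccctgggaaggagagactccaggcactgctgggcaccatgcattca

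The Mmp8 window held TTGCTCAA at −19 from the start, 11 bp from the middle of the WT +Dox peak, 90 bp from that of Mut +Dox and 61 bp from that of the inhibitor list. Mmp27 had TTGCAAAA at −57, between 98 and 193 bp from the middles of its peaks. Mmp10 had a match on the other strand at −241 and TGAGTCA at −63, and Mmp13 had TGACTCA at −35. Both promoters with a peak held TTGCNNAA and no TGANTCA. The 8 cluster promoters without a peak all held TGANTCA, and 4 of them held TTGCNNAA too.

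Among the 32 members with a window, both motifs, searched on both strands, were found only in the cluster. The 14 members without a window, all outside the cluster, were not searched. TTGCNNAA occurred in 6 of 32 member promoters (18.8%) and 11.7% of all promoters. The 6 were Mmp3, Mmp7, Mmp8, Mmp10, Mmp12 and Mmp27. TGANTCA occurred in 8 of 32 (25%) and 8.12% of all, at Mmp1a, Mmp1b, Mmp3, Mmp7, Mmp10, Mmp12, Mmp13 and Mmp20. All 10 cluster promoters thus held one or the other, and the other 22 member promoters held neither. Base composition moved with this split: GC content was 37.7 to 46.7% (median 42.8%) in the cluster and 53.3 to 80% (median 65.3%) in the other members. Of the 2603 genes whose promoters lay in the cluster's GC range, 26.9% held one or the other, against 18.2% of all. The exact palindrome TTGCGCAA, which is part of both looser forms searched, had 0 matches in members and 0.246% of all promoters. TTNCGCAA (0 and 1.09%) and the C/EBP-ATF composite TGATGCAA (0 and 1.01%) had none in members either. A match is a description of letters in these windows and not a bound site.

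Outside the cluster, Mmp2 had the most sites of the family. It encodes gelatinase A, which cuts denatured collagen and basement membrane collagen. Within 50 kb of its span (chromosome 8, 92827290 to 92853421) there were 4, 3, 5, 7 and 5 sites, 7 in all, of which 3 had a peak in every list. Mut +Dox had the most and Mut −Dox the fewest. The main site (92800807 to 92802065) lay 25.9 kb outside the gene and scored 813.86, 700.39, 514.91, 873.8 and 700.66, at percentiles 97.3 to 99.1 of its lists. A percentile is the rank of a score within its own list; lists of different lengths are not on 1 scale, so percentiles show no change between conditions. The site nearest to the gene (92825159 to 92826705, 1.36 kb outside it) scored 199.95, 281.03, 67.45, 131.21 and 241.97. Mmp9, the other gelatinase, had 1 site inside the gene (score 53.66), in the inhibitor list only.

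Membrane-type MMP genes were 6, each with at least 1 site, and their sites numbered 5, 2, 4, 5 and 5. Mmp14, which activates Mmp2 at the cell surface together with Timp2, had 1, 0, 3, 2 and 1. WT +Dox had the most and Mut −Dox none. Its 4 sites were all weak, with scores from 52.45 to 101.23 and no percentile above 47.9, and none had a peak in more than 3 lists. Those at 54409517 to 54410526 and 54426404 to 54427188 of chromosome 14 lay nearer to Slc7a7 and Mrpl52 than to Mmp14. Mmp24 had 1 site at a gene end (chromosome 2, 155817536 to 155818640) that had a peak in every list, with scores of 639.01, 554.69, 508.73, 543.71 and 760.76. It also touched the gene BC029722. Mmp15 had 1, 1, 0, 1 and 1 site, Mmp25 1, 0, 0, 1 and 0 and Mmp16 1, 0, 0, 0 and 0. Mmp17 had 2 sites, both in the inhibitor list and nearer to Zfp11.

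Mmp11 and Mmp19 each had 2, 2, 3, 3 and 3 sites. The third site was found in all 3 induced lists and neither uninduced list. At Mmp19 a site beside one end of the gene (chromosome 10, 128790363 to 128791342) scored 404.59, 369.93, 167.4, 155.46 and 339.31. Those of Mmp11 lay nearer to Smarcb1 and Vpreb3 than to Mmp11. Mmp21 had 0, 0, 1, 1 and 1 site, inside Edrf1, with scores of 182.49, 171.83 and 281.17. Mmp23 had 1 site in every list, and Mmp28 had 1, 0, 0, 1 and 1.

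ADAMTS genes had 59 sites at 15 of 19 genes, where 61% of all protein-coding genes had a site. The lists held 26, 22, 29, 46 and 49 of the 59. Mut +Dox and the inhibitor list had the most. Among the procollagen N-proteinases, which trim the ends of fibrillar procollagens, Adamts2 had 3, 3, 4, 5 and 8 sites, Adamts14 had 2, 2, 2, 3 and 3, and Adamts3 none. All 9 merged sites of Adamts2 lay inside its span (chromosome 11, 50602085 to 50807573). The highest-scoring one (50642269 to 50643445), 40.8 kb into the gene, scored 879.88, 1022.16, 526.66, 1081.75 and 769.19, at percentiles 97.5 to 99.8. It ranked near the top of every list. Another 2 sites of Adamts2 had a peak in every list, 1 was found in the 3 induced lists, 1 in Mut +Dox only and 4 in the inhibitor list only, with scores of 51.33 to 82.18.

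Adamts14 had no site with a peak in every list. Its site with the highest score (chromosome 10, 61312637 to 61313468), 39.6 kb from the gene and nearer to Pald1, had scores of 193.01 and 129.9 in the WT and Mut lists without Dox, 55.9 in Mut +Dox and no peak in the others. A site 4.71 kb before its start (61277659 to 61278605) scored 102.13, 106.49 and 133.82 in the 3 induced lists and had no peak in the uninduced ones.

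Proteoglycanases of the family, the enzymes that cut aggrecan and versican, had 6, 5, 4, 13 and 12 sites over 7 genes. The lists of Mut +Dox and the inhibitor stood above the other 3. Adamts9 (chromosome 6, 92772699 to 92944450) had 1, 0, 0, 4 and 5 sites, all inside the gene. Its main site (92826596 to 92828125) scored 167.66 in Mut +Dox and 223.71 with the inhibitor and had no peak elsewhere. The other 4 scored 50.81 to 116.94. Adamts5 (chromosome 16, 85858157 to 85901125), an aggrecanase gene, had 2, 3, 1, 4 and 4 sites. Its main site (85900731 to 85901956), at one end of the gene, had a peak in every list, with scores of 149.57, 84.33, 247.09, 401.75 and 403.81. Adamts1 had 2 sites, both in Mut +Dox only, with scores of 57.34 and 68.13, at 44.3 and 28 kb from the gene. The one with the higher score was also counted for Adamts5 and lay nearer to it. Adamts4 had 2, 1, 2, 2 and 2 sites, nearer to Fcer1g and Ufc1 than to Adamts4. Adamts8 and Adamts15 shared the same 2 sites and had 1, 1, 1, 2 and 1 each.

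Adamts16 had 3, 1, 5, 8 and 8 sites, 8 of its 9 merged sites inside the gene (chromosome 13, 70727798 to 70841845). Mut −Dox had the fewest. One site (70805185 to 70806295) had a peak in every list, with scores of 214.62, 116.71, 246.87, 410.47 and 389.18, and another (70732665 to 70734594) in the 3 induced lists, with 74.03, 260.92 and 203.4. Its relative Adamts18 had 1 site, in the inhibitor list only, and Adamts19 none.

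Adamts12 and Adamts7 encode proteases that cut cartilage oligomeric matrix protein. Adamts12 (chromosome 15, 11064773 to 11349232) had 5, 4, 4, 6 and 7 sites, of which 4 had a peak in every list. Its highest-scoring site (11370346 to 11371430), 21.7 kb outside the gene and nearer to Tars, scored 485.41, 271.26, 195.9, 300.18 and 239.32. Adamts7 had 2, 2, 2, 2 and 3.

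Fibrillin-related members also held sites in every list. Adamts6 (chromosome 13, 104286518 to 104496695) had 3, 3, 6, 6 and 5 sites. Its 3 additional sites in WT +Dox were absent from both uninduced lists. The highest-scoring site (104266420 to 104267391), 19.6 kb outside the gene and nearer to Cenpk, scored 365.25, 140.46, 267.48, 341.97 and 431.3. Adamts10 had 1, 1, 1, 2 and 1, and its main site (chromosome 17, 33503252 to 33504351), 19.8 kb outside the gene, scored 476.57, 352.97, 338.78, 764.57 and 764.82. Adamts17 had 1 in every list.

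TIMP genes had 16 sites, and the lists held 8, 7, 10, 11 and 15. Timp3, which encodes the inhibitor that binds to the matrix and also blocks several ADAM and ADAMTS enzymes, had the most. It had 5, 5, 5, 6 and 5 sites, and 5 of its 6 merged sites had a peak in every list. Mut +Dox thus held 1 more than each of the other lists. The span of Timp3 (chromosome 10, 86300412 to 86349505) lies inside Syn3, so all 6 sites are also sites of Syn3. The site with the highest rank (86389454 to 86390691), 40.6 kb outside Timp3, scored 189.53, 239.92, 270.38, 476.12 and 488.45, and one inside the gene (86339307 to 86340531) scored 291.64, 221.66, 290.41, 432.06 and 390.42.

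Timp4 (chromosome 6, 115244444 to 115252205) lies inside Syn2 and had 2, 1, 3, 2 and 5 sites. The inhibitor list held all 5. The site inside the gene (115247482 to 115248413) had a peak in every list, with scores of 78.18, 50.73, 125.63, 170.41 and 271.48. Its percentile was 1.47 in Mut −Dox, close to the lowest score of that list, and 83.6 in the inhibitor list. These are ranks within separate lists and show no change between conditions. Timp2 (chromosome 11, 118301061 to 118355411), which also helps Mmp14 to activate Mmp2, had 1, 1, 2, 3 and 4 sites. The one with a peak in every list (118289517 to 118290930) lay in Usp36 and scored 181.32, 94.26, 106.07, 197.35 and 208.32. A site 7.45 kb before the start of Timp2 (118362093 to 118363619) scored 71.58, 178.35 and 63.54 in the 3 induced lists. Timp1, inside Syn1, had 1 site, in the inhibitor list only (score 80.54), 1.77 kb before its start.

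In the WT line, the comparison without and with Dox addresses what induction of wild-type C/EBPβ does to its sites. More members had more sites after Dox than fewer: 13 of 32 with a site in either list (40.6%) had more, 7 (21.9%) fewer and 12 equal numbers. Of all protein-coding genes with a site in either list, 35.6% had more and 22% fewer, so the members' shares were near the background. The greatest surpluses were 3 sites each at Adamts6, Mmp8 and Mmp27, followed by 2 each at Adamts16 and Mmp14. Deficits were 1 site each, at Adamts5, Adamts9, Adamts12, Mmp15, Mmp16, Mmp25 and Mmp28. WT +Dox held 40 of the 52 WT −Dox sites (76.9%, 95% Wilson interval 63.9 to 86.3, for counting error only), against 74.5% of all sites. It held 22 sites of its own and WT −Dox 12. The highest-scoring WT +Dox sites absent from WT −Dox lay near Mmp21 (182.49), inside Adamts6 (156.44) and near Mmp11 (135.56), and the highest in the other direction near Adamts14 (193.01). When each list was limited to its 6898 highest-scoring peaks, the unshared sites were 11 in WT +Dox and 16 in WT −Dox, the opposite order. At that length the Adamts16 difference was -1 and that of Adamts6 was 1, while Mmp8, Mmp14 and Mmp27 had equal numbers.

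Of the 5 comparisons, mutant cells without and with Dox had the most members with a difference. Of 32 members with a site in either list, 26 (81.2%) had more sites after Dox, 0 fewer and 6 equal numbers, where 72.7% of all such genes had more and 3.1% fewer. Members thus shared a surplus found at most genes. Adamts16 had 7 more, and Adamts9, Mmp2, Mmp8 and Mmp27 had 4 more each, the same 4 sites at Mmp8 and Mmp27. All 6 proteoglycanase genes with a site had more, 3 of the 4 TIMP genes had more, and the fourth, Timp1, had 0 in both. The proteoglycanase gains were not all separate. The site scoring 68.13 counted for both Adamts1 and Adamts5, and that scoring 58.06 for both Adamts8 and Adamts15. Mut +Dox held 40 of the 41 Mut −Dox sites (97.6%, 87.4 to 99.6), against 91.9% of all sites. The 1 absent site lay near Adamts14 and scored 50.12, at percentile 0.304. Mut +Dox had 44 sites of its own, of which 14 (31.8%) lay above that list's median score. Such a share was not computed for all sites of the genome, here or in the comparisons below. It therefore cannot be read as a trait of members. The highest were inside Adamts16 (260.92), near Adamts4 (242.07) and inside Adamts2 (188.53). With equal list lengths the unshared sites were 8 in Mut +Dox and 14 in Mut −Dox, again the opposite order. At that length Adamts12 and Adamts14 had 2 sites fewer after Dox, and Mmp2, Timp3 and Adamts5 1 fewer. Adamts9, Adamts16, Mmp11, Mmp21 and Timp2 had 1 more each. Adamts1, Adamts4, Adamts8, Adamts15, Mmp8, Mmp27 and Timp4 had equal numbers.

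After induction, WT and mutant cells were compared to ask whether binding differs when the modified residues are lost. More sites in Mut +Dox were found at 17 of 32 members (53.1%), fewer at 2 (6.25%) and equal numbers at 13. The background was 45.1% with more and 13.5% with fewer, near the members' shares. ADAMTS genes, of which 15 had a site in any list, made up 10 of the 17. They had 4 more sites at Adamts9, 3 more at Adamts5 and Adamts16 and 2 more at Adamts1 and Adamts12. These genes are not all independent. The same site (68.13) counted for Adamts1 and Adamts5, and the same site (58.06) for Adamts8 and Adamts15. Mmp2 also had 2 more. Fewer sites were found at Mmp14 and Timp4, 1 each. Mut +Dox held 55 of the 62 WT +Dox sites (88.7%, 78.5 to 94.4), against 87.7% of all sites, and had 29 of its own, of which 5 lay above its median score. They were the main site of Adamts9 (167.66) and sites near Adamts5 (155.24) and Mmp15 (130.69) and inside Timp3 (117.23) and Timp2 (115.25). The 7 sites of WT +Dox only were all below that list's median. With equal lengths the unshared sites were 6 in each list, and Adamts2, Adamts14 and Mmp2 had 1 fewer in the mutant. Adamts5, Adamts9, Adamts16 and Timp2 then had 1 more each, and Adamts1 and Adamts12 had equal numbers. Timp4 had 1 more in the mutant in a 100 kb window and among peaks with a score of at least 100.

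The inhibitor comparison, within the WT line, asks the same of blocking PARP. More sites with BYK were found at 15 of 34 members (44.1%), fewer at 2 (5.88%) and equal numbers at 17, where 52.3% of all such genes had more and 8.85% fewer. The members' shares were near the background. Adamts9 had 5 more, Adamts2 4 more, and Adamts5, Adamts12 and Adamts16 3 more each. TIMP genes had 10 sites without and 15 with the inhibitor, that is 2 more at Timp2 and Timp4, 1 more at Timp1 and 0 at Timp3. The whole lists also grew, from 12283 sites without to 18223 with the inhibitor. Fewer sites were found at Mmp14 (2 fewer) and Adamts6 (1 fewer). The inhibitor list held 58 of the 62 WT +Dox sites (93.5%, 84.6 to 97.5), against 89.4% of all sites. That list had 32 of its own, and 3 of them were above its median score: 2 inside Adamts9 (223.71 and 116.94) and 1 near Mmp28 (127.55). The 4 sites of WT +Dox only scored 53.6 to 60.39, and 3 of them lay near Mmp14. With equal lengths the unshared sites were 7 with the inhibitor and 5 without, and Adamts6 and Adamts14 had 1 fewer. Adamts9, Adamts12 and Adamts16 then had 1 more each. Adamts2, Adamts5, Timp1, Timp2 and Timp4 had equal numbers at that length. Mmp14 had 1 more with the inhibitor among peaks with a score of at least 100.

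The mutant and inhibitor comparisons share the WT +Dox list, so their values are given side by side only. The differences from WT +Dox, mutant first, were 4 and 5 sites at Adamts9, 3 and 3 at Adamts5 and at Adamts16, and 2 and 3 at Adamts12. They were 1 and 4 at Adamts2, 1 and 2 at Timp2, 2 and 0 at Mmp2, 2 and 0 at Adamts1, -1 and 2 at Timp4 and -1 and -2 at Mmp14. Equal numbers need not be the same sites. At Adamts5 the site at 85830651 to 85831601 was in Mut +Dox only and that at 85922343 to 85923105 in the inhibitor list only. Of the member sites absent from WT +Dox, 29 in Mut +Dox and 32 with the inhibitor, 15 were in both. These were 51.7% and 46.9%, near the 51.9% and 50.2% of all such sites.

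Without Dox, the lines also differed. Mut −Dox had fewer sites than WT −Dox at 13 of 30 members (43.3%), more at 1 (3.33%) and equal numbers at 16, where 52.8% of all such genes had fewer and 6.03% more. Adamts16 had 2 fewer, and Adamts4, Adamts9, Adamts12 and Mmp14 were among those with 1 fewer. Adamts5 was the gene with 1 more, a site that scored 54.44. Mut −Dox held 40 of the 52 WT −Dox sites (76.9%, 63.9 to 86.3), against 56.6% of all sites. The highest-scoring of the 12 others lay near Adamts4 (244) and Adamts16 (114.53). With equal lengths the unshared sites were 6 in Mut −Dox and 5 in WT −Dox, the opposite order, and Timp4 had 1 more in Mut −Dox. Adamts5 had 1 fewer among peaks with a score of at least 100.

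**Figure D3:**
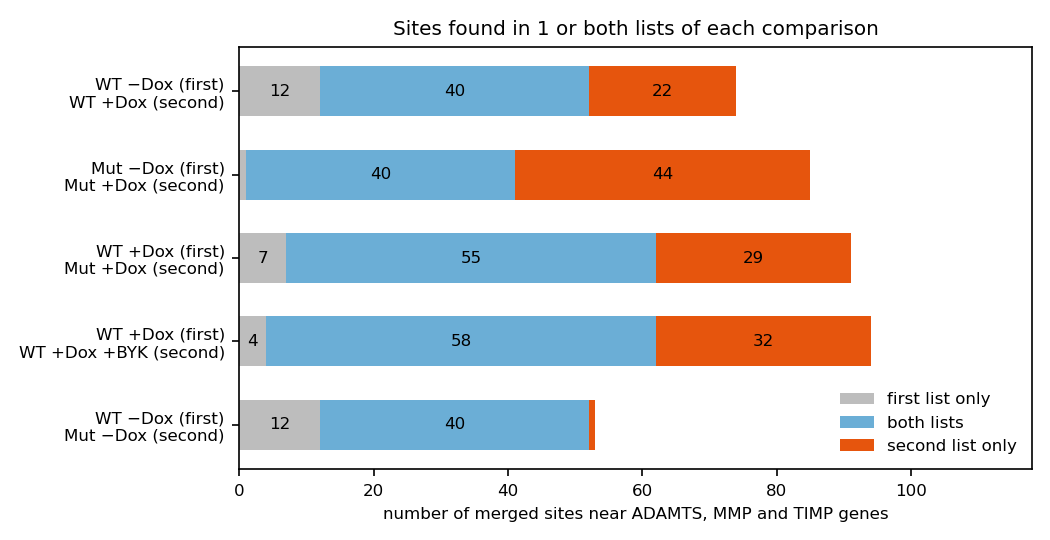
Number of merged sites near ADAMTS, MMP and TIMP genes found in the first list only (grey), in both (blue) and in the second list only (orange) of each comparison. Both uninduced lists against their induced ones share 40 sites, while the sites of the induced list only number 22 in WT and 44 in Mut.

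Limiting lists to equal length keeps their strongest peaks and by construction takes away most of a longer list's surplus. Of the members whose number of sites differed with all peaks, many had equal numbers at that length. They were 9 of 20 in WT without and with Dox, where 5 had more and 6 fewer, 16 of 26 in Mut, 12 of 19 between the induced lines, 12 of 17 with the inhibitor and 8 of 14 between the uninduced lines. Whether a difference in list length reflects depth, enrichment or binding was not tested.

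A common set of 35 member sites, at 22 genes, had a peak in all 5 lists. They were 32.1% (24.1 to 41.4) of member sites, against 21.8% of all sites. Another 31 (28.4%) were in 1 list, against 30.7%. Of these, 16 were in the inhibitor list, 12 in Mut +Dox, 2 in WT +Dox, 1 in WT −Dox and 0 in Mut −Dox. Sites in more lists ranked higher: the median of each site's best percentile was 16.3 for sites in 1 list, 33.2 in 2, 58.9 in 3, 60 in 4 and 83.6 in all 5. A best value over more lists is higher in part by construction. Of the 31 sites in 1 list, 1 reached the upper part of its list by score, the Mut +Dox site inside Timp3. The 35 common sites included the main ones of Adamts2, Mmp2, Mmp24, Adamts10, Mmp13, Timp3 and Mmp27.

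**Figure D4:**
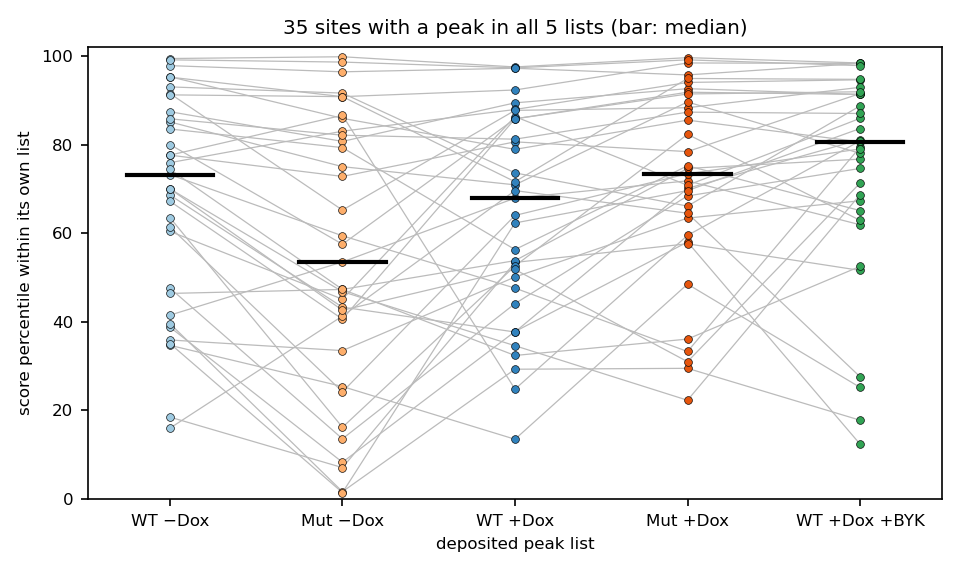
Score percentile within its own list (vertical axis) of the 35 member sites with a peak in all 5 lists (dots, joined by site), with the median as a bar. The medians are 73.2, 53.5, 67.9, 73.4 and 80.6 in list order, and since the lists differ in length they do not measure change.

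Peaks in the 3 induced lists and neither uninduced list were found at 14 member sites (12.8%, 7.81 to 20.4), near 13 genes, against 10.1% of all sites. They lay near Adamts2, Adamts6, Adamts14, Adamts16, Mmp2, Mmp8, Mmp10, Mmp11, Mmp19, Mmp21, Mmp27, Timp2 and Timp4. Those near Mmp11 (292.02) and Mmp21 (281.17) had the highest scores of the 14 in the inhibitor list. Others ranked high in 1 list and low in another, such as the site before Timp2, at percentile 71.2 in Mut +Dox and 18.9 with the inhibitor. Such ranks, within lists of different lengths, show no change between conditions.

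Most member sites lay away from gene ends. Of 121 pairs of a member and a site in its window, the site's midpoint was inside the gene in 51 (42.1%, 33.7 to 51.1) and within 1 kb of a gene end in 8 (6.61%, 3.39 to 12.5). Over all protein-coding genes these shares were 31.4% and 6.33%. A member was the nearest gene for 76 of the 109 sites and another gene for 33. Site widths had a median of 930 bp, against 926 bp for all sites. Exon, intron and UTR positions were not analysed here.

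For comparison, a list of 38 other genes of matrix proteolysis was counted in the same way. They were ADAMTS-like, membrane ADAM, plasminogen system, protease activator and inhibitor, astacin, cathepsin and proteoglycan substrate genes. Of the 38, 29 had a site, where 61% of all protein-coding genes had one. The lists held 57, 32, 67, 100 and 95 of their sites. Of those with a site in either list, 12 of 26 had more and 6 fewer in WT without and with Dox (46.2% and 23.1%, against 35.6% and 22% of all genes). In Mut cells it was 27 and 0 of 29 (93.1% and 0%, against 72.7% and 3.1%). Mut +Dox against WT +Dox gave 17 and 4 of 29 (58.6% and 13.8%, against 45.1% and 13.5%), and the inhibitor 18 and 2 of 29 (62.1% and 6.9%, against 52.3% and 8.85%). In Mut −Dox against WT −Dox, 2 of 25 had more and 16 fewer (8% and 64%, against 6.03% and 52.8%). Furin, which activates membrane-type MMPs, had 2, 0, 4, 3 and 5 sites. Plau, the urokinase gene, had 2, 0, 2, 4 and 4. Vcan, which encodes versican, a substrate of the proteoglycanases, had 2, 1, 4, 7 and 4. Reck, a membrane-anchored MMP inhibitor, had 2, 1, 2, 2 and 2.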

How the data were processed

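DNA from C/EBPβ ChIP and from input was sequenced, and Bowtie, bedtools and build mm10 are named in the submitters' processing notes without versions. The deposited lists give each peak's position and a score, which is the authors' own value with no stated scale. Scores of different lists may be on different scales, so scores in list order are no measure of change. A minimum score of 100 may likewise not be equally strict in each list. How peaks were called, whether input was used and whether replicates were pooled is not given in the sources used here. Gene spans came from GRCm38.p6, the coordinates of mm10, and all coordinates are 1-based. Sites, windows and shares were computed with pandas 2.3.3, numpy 2.4.6 and scipy 1.17.1 under Python 3.11.15, figures with matplotlib 3.10.9, and site counting was tested on simulated data. Positions were counted as gene and site pairs, so that members and all genes were treated alike.

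Members, roles and lists were chosen with earlier results of these data known. Genes described in full were the 12 with the most merged sites, the TIMP genes, and up to 5 with the greatest surplus or deficit in each of the 5 comparisons; other members are given by their counts. Of each named gene the highest-scoring site is given, and of each comparison up to 5 sites found in 1 list. Neighbouring sites are not independent, so Wilson intervals, at 95%, are likely too narrow. RefSeq promoter windows were 300 bases long, and 14 members had no match.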

Additional observations from a re-analysis of the deposited data

Results flagged for a closer look

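At 5 of the 33 members with a site in any of the 4 lists (15.2%), the number of sites differed in opposite directions in the WT and Mut lines on Dox, against 12.6% of 12506 protein-coding genes. The members' share was thus near the background. Each difference rests on 1 list per condition and was not tested. Adamts9 had 1 site fewer after Dox in the WT line and 4 more in the Mut line, a gap of 5 sites. Adamts12 had 1 fewer and 2 more, a gap of 3. Adamts5, Mmp25 and Mmp28 each had 1 fewer and 1 more, a gap of 2. Sites with a peak in WT −Dox but not in WT +Dox had WT −Dox scores of 66 at Adamts9, 83.08 at Adamts12, 80.86 at Adamts5, 84.75 at Mmp25 and 89.64 at Mmp28, where the lowest score of that list was 50.02. With 6898 peaks from each list, none of the 5 differed in opposite directions. The WT and Mut differences were then 0 and 1 at Adamts9, -2 and -2 at Adamts12, -1 and -1 at Adamts5, and -1 and 0 at Mmp25 and at Mmp28.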

How the results depend on the processing

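No paired analysis was possible because the peak lists carry no replicate numbers and no result comes from a test. With a 10 kb window the merged sites were 69, and 28, 23, 39 and 52 in the first 4 lists. Peaks with a score of at least 100 gave 63 merged sites and 28, 19, 33, 48 and 51 by list. Giving each site to its nearest gene left 33 in WT −Dox and 26 in Mut −Dox. With 6898 peaks per list the merged sites were 57, and 35, 35 and 37 in WT +Dox, Mut +Dox and the inhibitor list. The share of unshared sites that lay in the second list was then 40.7% (WT without and with Dox, 64.7% with all peaks), 36.4% (Mut without and with Dox, 97.8%), 50% (Mut +Dox against WT +Dox, 80.6%), 58.3% (inhibitor, 88.9%) and 54.5% (Mut −Dox against WT −Dox, 7.69%). It was 100% in Mut without and with Dox within 10 kb and with nearest genes. At equal length the differences turned to -1 for Adamts16 (WT on Dox), Mmp2, Timp3 and Adamts5 (Mut on Dox), Mmp2, Adamts2 and Adamts14 (Mut against WT, induced) and Adamts14 (inhibitor), to -2 for Adamts12 and Adamts14 (Mut on Dox) and to 1 for Timp4 (uninduced lines). With a score of at least 100 they turned to -1 for Adamts16 (WT on Dox) and Adamts5 (uninduced lines) and to 1 for Mmp14 (inhibitor) and Timp4 (Mut against WT, induced), and Timp4 was also 1 within 100 kb. No difference by gene turned under 10 kb, nearest genes, a 200 bp overlap or peaks widened by 250 bp. Many changed in size or fell to 0 without turning, however. Under 10 kb 51 did so and 45 stayed the same, and with nearest genes 50 did so and 46 stayed. Widened peaks changed 4, and a 200 bp overlap left all 96 the same. At equal length 16 stayed the same, 69 changed without turning and 11 turned. With a score of at least 100 these were 15, 77 and 4, and within 100 kb 62, 33 and 1. Within 5 kb of a gene end lay 19.8% of pairs, and TTGCNNAA matched 6 promoters where TTGCGCAA matched 0. The unknown depth and the single list per condition limit every difference.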
